A study of Homo sapiens with 4 samples.

Results

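The messenger RNAs of the microtubule motors were described as targets of the helicase DHX36 in HEK293 cells, a human embryonic kidney line. The 56 genes are the rows of the deposited table whose symbols are those of a kinesin (KIF), a kinesin light chain (KLC), a cytoplasmic dynein subunit (DYNC1, DYNC2) or a dynein light chain (DYNL), out of 26490 rows. They comprise 43 kinesin genes and 13 dynein genes, and were chosen by name and not by their values. The 2 cell lines carried a FLAG/HA-tagged transgene on a tetracycline-inducible promoter. Cells were given tetracycline (500 ng per ml) for 15 h before 5 min of UV light at 365 nm. One line made FH-DHX36, which the labels give as isoform 2, and the other FH-DHX36-E335A, a helicase-dead mutant that the labels give as isoform 1. Isoform and mutation cannot be told apart between the lines, and both proteins were made on top of the DHX36 of the cell. There were 2 biological replicates per line, which the table holds combined, so that every gene has 1 value per PAR-CLIP and no test between the lines was possible.

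Kinesins and dyneins convert ATP into movement along microtubules. Most kinesins walk toward the plus end and carry vesicles, organelles and protein complexes outward, while others build the mitotic spindle or take microtubules apart. Cytoplasmic dynein walks toward the minus end, with dynactin and adaptor proteins as partners, and a second dynein returns cargo inside cilia. DHX36 unwinds G-quadruplexes, four-stranded folds that form where an RNA has several runs of G close together. In PAR-CLIP, 4-thiouridine in RNA is crosslinked to the bound protein by UV light, and the crosslink is read as a T-to-C change. The authors grouped overlapping reads into clusters, and the table gives for each gene the number of clusters, the number of crosslinked reads in them, and NXPM, which is crosslinked reads scaled to the PAR-CLIP total and divided by mRNA abundance.

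The runs of G that motor mRNAs hold are shown first, since the distribution of reads over 5′UTR and 3′UTR is described against them below. A match was at least 4 runs of at least 3 G with 1 to 7 bases of any kind between them (GGG, then 1 to 7 N, and so on), read on the mRNA strand, without overlap between matches. A base between runs may itself be G, so that a stretch of 7 G can count as 2 runs though it is printed as 1. The 3′UTR held such a match in 9 of the 56 genes (16.1%), against 14.5% of 17744 protein-coding 3′UTRs, and the 5′UTR in 8 (14.3%), against 6.92% of 17723 5′UTRs. With runs of 2 or more G in place of 3, which takes in the former matches, 35 of the 56 3′UTRs held one (62.5%), against 65.3%. The matches below are examples from genes with clusters in the same UTR, except KIF26A, shown as a 5′UTR match with no 5′UTR cluster. Not printed are the 3′UTR matches of KIF1C, KIF2C and KLC1, which had 3′UTR clusters. KIF12, KIF19, KIF26A and KLC3 had a 3′UTR match and no 3′UTR cluster. They are written 5′ to 3′ with G runs in capitals, in coordinates of GRCh37, the same build as hg19, from the reference transcripts of GENCODE release 44.
DYNLL2 5′UTR, chr17:56160822-56160836, plus strand: GGGcGGGcGGGcGGG
DYNLL2 3′UTR, chr17:56167193-56167213, plus strand: GGGGcggaGGGtGGGGtGGGG
DYNLL2 3′UTR, chr17:56167623-56167651, plus strand: GGGGtttGGGGtagaaGGGaGGGaGGGGG
DYNLL2 3′UTR, chr17:56168106-56168126, plus strand: GGGGtGGGGtttGGGGtGGGG
KIF1A 3′UTR, chr2:241656525-241656548, minus strand: GGGagaggctGGGGGGGccaaGGG
KIF1A 3′UTR, chr2:241655897-241655926, minus strand: GGGcGGGGaccaggaGGGagcGGGGtcGGG
KIF18B 5′UTR, chr17:43025087-43025106, minus strand: GGGtaGGGGaGGGtgtGGGG
KLC2 5′UTR, chr11:66025278-66025301, plus strand: GGGtgcGGGtccGGGtgaagcGGG
KIF26A 5′UTR, chr14:104604955-104604981, plus strand: GGGccGGGccatGGGGGcgcctcGGGG
The table has no cluster positions, so whether a cluster covers any of these bases was not examined, and a match is a description of letters and not a binding site.

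Of the 56 motor genes, 38 had a cluster with FH-DHX36-E335A, against a background of 34.5% of all rows, and 26 had one with FH-DHX36, against 22.4%. Among the 18010 rows that match a protein-coding transcript, as every motor gene does, the backgrounds were 47.9% and 31.1%. The shares of the motor genes were 67.9% (95% Wilson interval 54.8 to 78.6) and 46.4% (34.0 to 59.3), intervals that cover counting error only. At least 1 of the proteins had a cluster on 40 motor genes (71.4%, background 35.5%) and both on 24 (42.9%, background 21.4%). Clusters were found with FH-DHX36-E335A alone on 14 genes (25%, background 13.1%). With FH-DHX36 alone they were found on 2, KIF5A and KIF26A (3.57%, background 0.985%). These 4 backgrounds are over all 26490 rows, of which 18010 match a protein-coding transcript. Among genes with a FH-DHX36-E335A cluster, 14 of 38 motor genes and 3462 of 9131 rows had it with that protein alone. The FH-DHX36-E335A PAR-CLIP held 8752127 crosslinked reads in the whole table and the FH-DHX36 PAR-CLIP 2160413, and a gene with few reads in the shallower one could go unlisted.

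The 14 genes listed with FH-DHX36-E335A alone were KIF3C, KIF5C, KIF13B, KIF14, KIF16B, KIF18A, KIF20A, KIF20B, KIF21A, KIF24, DYNC2H1, DYNLL1, DYNLT1 and DYNLT3. Their reads ranged from 38 for KIF13B to 827 for KIF5C. No cluster was listed for 16 genes with either protein, namely DYNC1I1, DYNC1I2, DYNC2LI1, DYNLRB2, KIF2B, KIF4B, KIF6, KIF9, KIF12, KIF17, KIF19, KIF21B, KIF25, KIF26B, KIF27 and KLC3. KIF4B is a near-identical copy of KIF4A, so that reads of the pair may have been assigned to either. The table gives no abundance for a gene without clusters, and weak expression and weak binding cannot be told apart there.

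**Figure D1:**
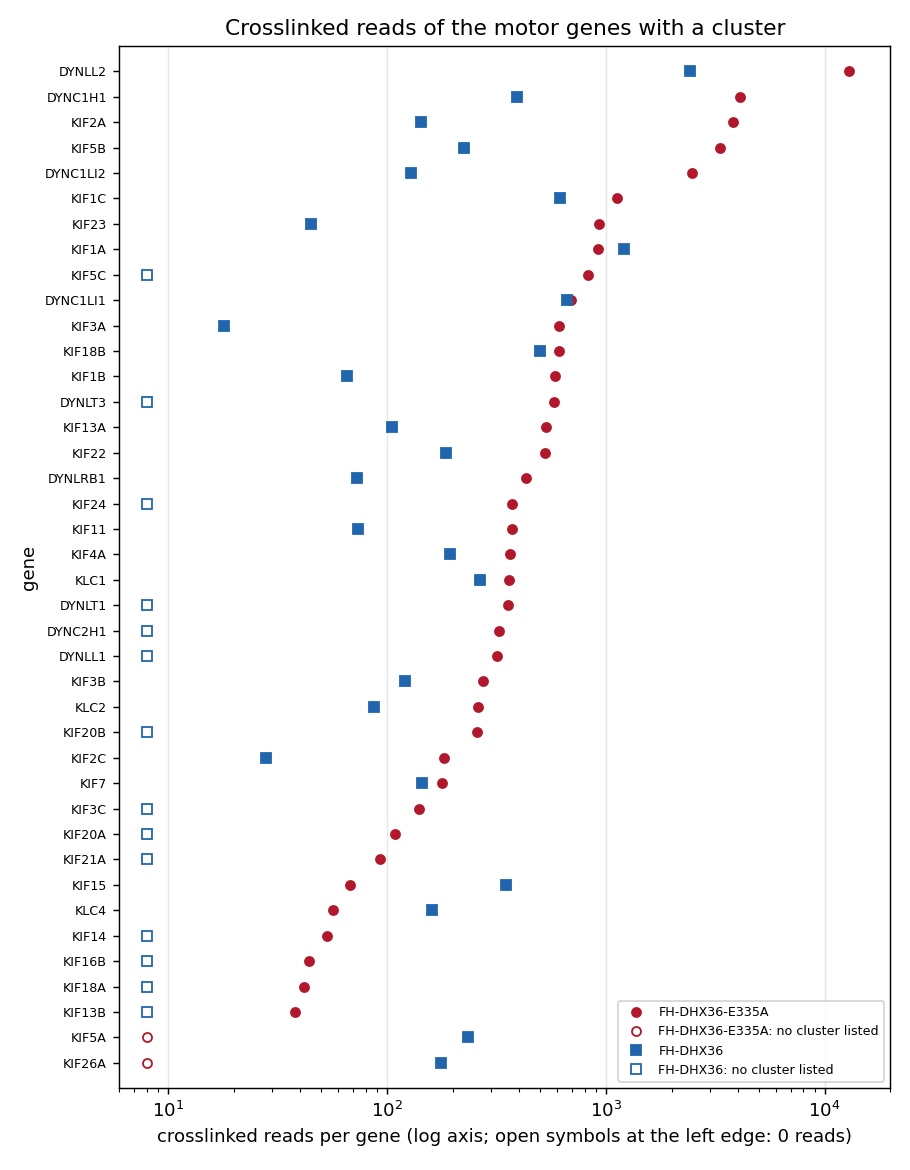
Crosslinked reads per gene (log axis) for the 40 motor genes with a cluster, with circles for FH-DHX36-E335A, squares for FH-DHX36 and open symbols for genes with no cluster listed. DYNLL2 had the most reads in both PAR-CLIPs, and among the genes listed in both, KIF1A, KIF15 and KLC4 had more reads with FH-DHX36.

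The motor genes held 39246 crosslinked reads in 292 clusters with FH-DHX36-E335A and 8652 reads in 85 clusters with FH-DHX36. A few genes held most of them: the 5 genes with the most reads had 67.7% of the FH-DHX36-E335A reads and 62.8% of the FH-DHX36 reads. DYNLL2 alone had 32.8% and 28.2%. The median gene with a cluster had 5 clusters and 370 reads (95% interval of the median over genes 261 to 587) with FH-DHX36-E335A, against 5 clusters and 326 reads over all rows with a cluster. With FH-DHX36 the median was 2 clusters and 169 reads (106 to 265), against 2 clusters and 121 reads over all rows.

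DYNLL2, a dynein light chain of the LC8 kind that also docks on many proteins outside dynein, had 12875 crosslinked reads in 18 clusters with FH-DHX36-E335A and 2437 reads in 15 clusters with FH-DHX36. It ranked 45 among all rows by reads with FH-DHX36-E335A and 127 by those with the other protein. The gene lies at chr17:56160780-56172903 on the plus strand. Of its reads, 10845 and 2130 lay in the 3′UTR, 655 and 307 in the 5′UTR and none in the CDS of 270 bases. The remaining 1375 reads with FH-DHX36-E335A carried an annotation other than UTR, CDS or intron. Per kb of its mRNA it had 1891 reads for FH-DHX36-E335A and 358 for FH-DHX36, the highest of the motor genes in both PAR-CLIPs.

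The 3′UTR of DYNLL2, of 6263 bases, held the 3 matches printed above, a number reached by 3.78% of 397 3′UTRs within 10% of its length. With runs of only 2 or more G, it held 27 matches, a number reached by 4.53% of those UTRs, whose median was 7. In the 5′UTR the match was found in 9.53% of 1312 5′UTRs of like length. Per kb of region, the DYNLL2 5′UTR had 2391 reads and the 3′UTR 1732 with FH-DHX36-E335A. With FH-DHX36 the values were 1120 and 340.1 reads per kb.

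DYNLL1, the paralog of DYNLL2, had 317 reads in 4 clusters for FH-DHX36-E335A and none listed for FH-DHX36. Of these reads, 206 lay in the CDS, which like that of DYNLL2 has 270 bases, and 82 in a 3′UTR of 283 bases that held no match with runs of 3 G. On the NXPM scale DYNLL2 had 118 with FH-DHX36-E335A and DYNLL1 had 0.0436. The abundances behind these scores, recovered from reads and NXPM, were 12.5 and 830. DYNLL1 has 7 annotated pseudogenes, so that its reads and its abundance are uncertain. Pseudogenes are also annotated for DYNLT3 (2) and for DYNC1I2, KIF18B and KIF3A (1 each), and the same limit holds for their values.

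DYNLRB1 and DYNLT1 had NXPM below the median of all rows with a cluster, which was 5.66 with FH-DHX36-E335A. DYNLRB1, of the roadblock kind, had 431 reads for FH-DHX36-E335A and 73 for FH-DHX36 at an abundance of 108, and NXPM of 0.456 and 0.313. DYNLT1, of the Tctex kind, had 356 reads and NXPM 0.175 with FH-DHX36-E335A at an abundance of 232. DYNLT3, also of the Tctex kind, had 583 reads, of which 441 in the 3′UTR, and NXPM 5.75 at an abundance of 11.6. Both DYNLT genes had no cluster with FH-DHX36.

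Among the subunits of cytoplasmic dynein-1, the heavy chain and both light intermediate chains were bound by both proteins and neither intermediate chain by either. DYNC1H1, the heavy chain that holds the motor, had 4091 reads for FH-DHX36-E335A and 392 for FH-DHX36. With FH-DHX36-E335A, 3558 reads lay in a single 3′UTR cluster and 515 in 12 clusters of the CDS. With FH-DHX36, 152 reads lay in 1 cluster of the 3′UTR and 240 in 5 clusters of the CDS. The 3′UTR thus held 87.0% (95% Wilson interval 85.9 to 88.0) and 38.8% (34.1 to 43.7) of the reads of the gene.

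The density of these reads depends on which end of the DYNC1H1 mRNA is taken. The annotation has a model with 5880 bases of 3′UTR and another with the same stop codon and 221 bases, which give 605 and 16099.5 reads per kb with FH-DHX36-E335A. Both exceed the 36.9 reads per kb of its CDS. With FH-DHX36 the corresponding 3′UTR values were 25.9 and 688, against 17.2 in the CDS.

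The 2 light intermediate chains, which tie dynein to its adaptors, had ratios between the PAR-CLIPs on opposite sides of 1. DYNC1LI2 had 2488 reads with FH-DHX36-E335A, of which 1823 in 15 clusters of the 3′UTR, and 129 with FH-DHX36, all in the 3′UTR. Its share of all crosslinked reads was 4.76-fold higher with FH-DHX36-E335A (counting interval 3.99 to 5.73). DYNC1LI1 had 691 reads for FH-DHX36-E335A and 668 for FH-DHX36, of which 364 and 545 in the CDS. Its share was 3.92-fold higher with FH-DHX36 (3.52 to 4.36). DYNC2H1, the heavy chain of the ciliary dynein-2, had 326 reads with FH-DHX36-E335A, 271 of them in 5 CDS clusters, and none listed with FH-DHX36.

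Among the 3 heavy chains of kinesin-1, a motor for organelles and vesicles, each had a different pattern. KIF5B, the broadly expressed one, had 3314 reads in 30 clusters with FH-DHX36-E335A and 226 reads in 3 clusters with FH-DHX36. Its 3′UTR held 2543 and 173 of them, and its CDS 461 and 0. KIF5C, known best from neurons, had 827 reads with FH-DHX36-E335A, all in 5 clusters of the 3′UTR, and none listed with FH-DHX36. KIF5A, also neuronal, had the reverse, with 235 reads in 1 cluster of the 3′UTR with FH-DHX36 and none listed with FH-DHX36-E335A.

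KIF5C and KIF5A had high NXPM, 95.5 and 152, at recovered abundances of 0.988 and 0.717, both under 1, where a small error in abundance changes the score. The 3′UTR of KIF5B, at 17.3% G, held 2 matches with runs of 2 or more G, where 3′UTRs of like length had a median of 3, and none with runs of 3. It held 12 copies of ATTTA on the mRNA strand, the core of AU-rich elements, a number reached by 8.78% of 1184 3′UTRs of like length, of which 95.1% held at least 1. The motor genes with more copies were KIF27 with 18, KIF3A with 17 and KIF2A with 14. KIF27 had no cluster, while KIF3A had 559 and KIF2A 22 reads in the 3′UTR with FH-DHX36-E335A. Whether such copies go with binding was not tested.

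Of the kinesin-1 light chains, which bind the cargo, KLC1, KLC2 and KLC4 were bound by both proteins and KLC3 by neither. KLC2 had 261 reads for FH-DHX36-E335A and 87 for FH-DHX36, of which 163 and 87 lay in the 5′UTR, where its match stands. KLC1 had 362 and 265 reads, of which 163 and 196 in introns and 13 and 69 in the 5′UTR. KLC4 had 57 and 160 reads, 32 and 141 of them with an annotation other than UTR, CDS or intron. None of the FH-DHX36 reads of KLC1, KLC2 or KLC4 lay in a 3′UTR.

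In kinesin-2, which works in cilia and on membranes, KIF3A had 613 reads for FH-DHX36-E335A and 18 for FH-DHX36, and 559 and 18 of them lay in the 3′UTR. Its share was 8.41-fold higher with FH-DHX36-E335A (counting interval 5.27 to 14.3), the highest such ratio among the motor genes. KIF3B, which pairs with KIF3A, had 275 and 121 reads. KIF3C, another partner of KIF3A, had 140 reads for FH-DHX36-E335A and none listed for FH-DHX36, and KIF17 had no cluster.

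All 7 genes of kinesin-3, a family that consists largely of vesicle motors, had a cluster for FH-DHX36-E335A and 4 for FH-DHX36, beside backgrounds of 47.9% and 31.1% of rows with a protein-coding transcript. KIF1A, which carries synaptic vesicle precursors, had 926 reads for FH-DHX36-E335A and 1208 for FH-DHX36, of which 899 and 1208 lay in the 3′UTR. Its NXPM was 31.5 and 166, and the value with FH-DHX36 was the highest of the motor genes. Its 3′UTR, at 31.6% G, held 19 matches with runs of 2 or more G, a number reached by 3.66% of 928 UTRs of like length, and 2 with runs of 3. The 3′UTR of KIF13B held 22 matches with runs of 2 or more G, a number reached by 1.06% of 1042. It had 12 reads with FH-DHX36-E335A and none listed with FH-DHX36. KIF1C held 16 such matches and had clusters there, while KIF6 with 17 and KIF21B with 14 had no cluster. Whether such matches go with binding was not tested.

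KIF1C, a relative of KIF1A, had 1125 and 616 reads, of which 1062 and 410 in the 3′UTR and 63 and 206 in the CDS. KIF1B, the third of the group, had 587 and 66 reads. KIF13A, a motor of endosomal vesicles, had 536 and 106 reads, of which 470 and 106 in introns.

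The mitotic kinesins with clusters for both proteins are described next. KIF18B, which destabilizes spindle microtubules, had 611 and 502 reads, of which 227 and 367 lay in 1 cluster of the 5′UTR, the UTR with the match printed above. The 5′UTR held 37.2% (33.4 to 41.0) and 73.1% (69.1 to 76.8) of its reads. KIF23, needed for the central spindle and cytokinesis, had 933 and 45 reads, of which 478 and 0 in the CDS and 420 and 45 in the 3′UTR. KIF11, the motor that keeps spindle poles apart, had 373 and 74 reads, of which 266 and 51 in the CDS.

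KIF22, a motor bound to chromosome arms, had 528 and 187 reads, of which 445 and 187 in the CDS. KIF4A, another motor of chromosome arms, had 366 and 195 reads, of which 183 and 157 in the CDS. KIF15, which helps keep spindle poles apart, had 68 reads for FH-DHX36-E335A and 350 for FH-DHX36, in 1 CDS cluster each. Its share was 20.9-fold higher with FH-DHX36 (counting interval 16.0 to 27.5), the largest ratio in that direction, and its NXPM was 3.69 and 76.9.

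KIF2C, which takes microtubules apart at centromeres, had 183 and 28 reads, of which 147 and 0 in the 3′UTR and 0 and 28 in introns. Of the mitotic kinesins listed with FH-DHX36-E335A alone, KIF14 had all of its 53 reads and KIF20A 71 of 109 in the 3′UTR. KIF20B had 236 reads in the CDS and none in the 3′UTR, and KIF18A 22 reads in the 5′UTR and 20 in the CDS.

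KIF2A, which takes microtubules apart at their ends, had 3812 reads in 31 clusters with FH-DHX36-E335A and 143 in 3 clusters with FH-DHX36. Its reads lay in the CDS (1213 and 77) or carried an annotation other than UTR, CDS or intron (2577 and 66), and 22 and 0 lay in the 3′UTR. Models with its stop codon have 3′UTRs of 107 to 5456 bases, and what the other annotation holds is not known. KIF24, which acts at centrioles, had 374 reads with FH-DHX36-E335A alone, 355 of them in introns. KIF26A, a member without known motor activity, had 177 reads in 3 CDS clusters with FH-DHX36 alone. These 3 genes are in neither of the lists of cargo and mitotic kinesins compared below.

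**Figure D2:**
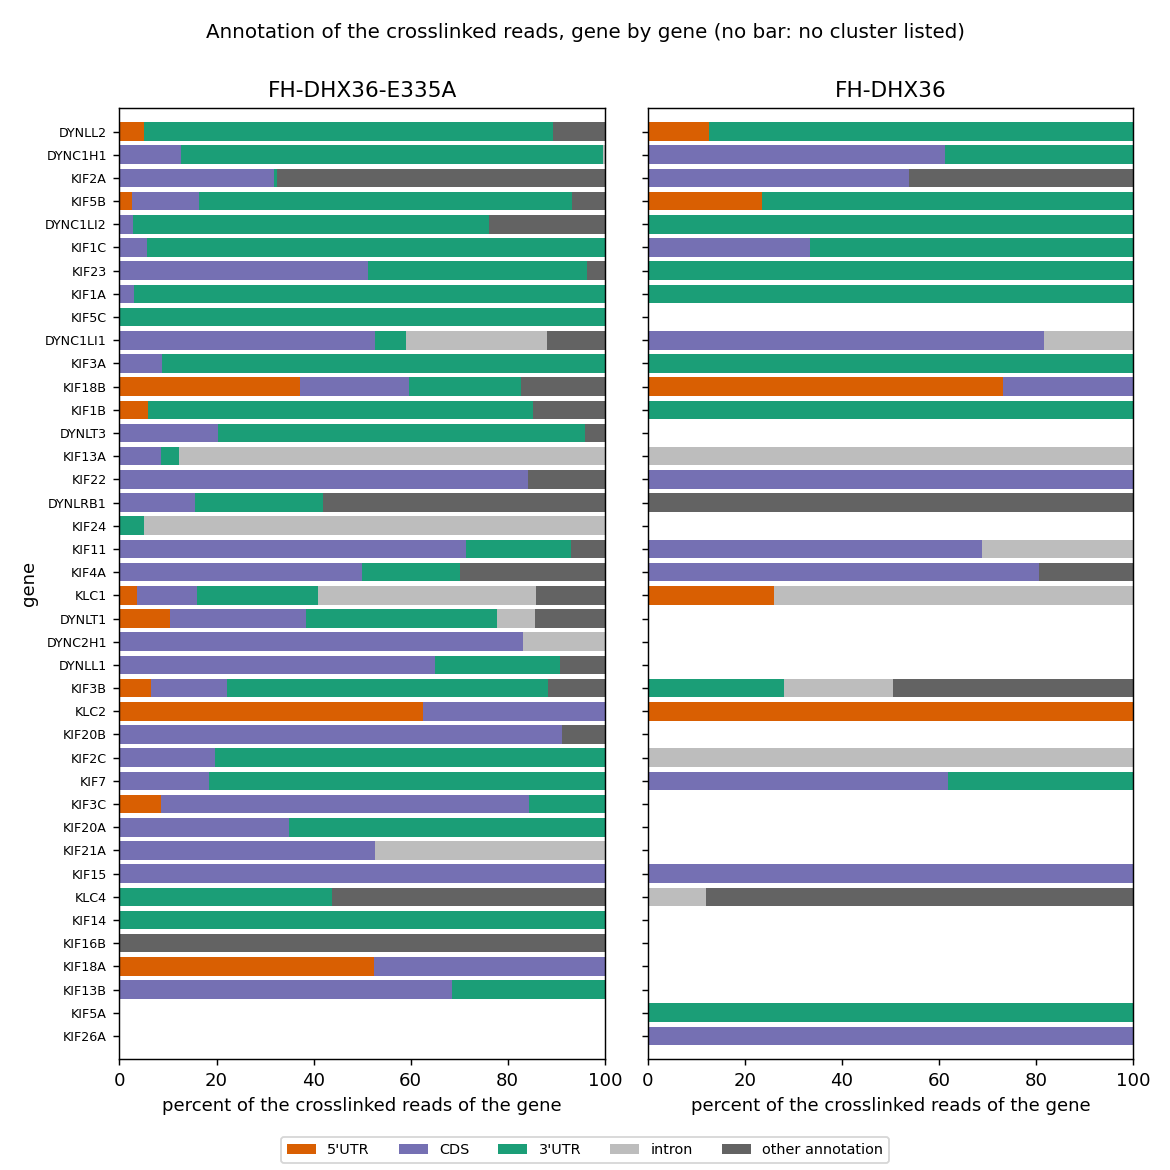
Percent of the crosslinked reads of each motor gene in 5′UTR, CDS, 3′UTR, introns and other annotations, with FH-DHX36-E335A on the left and FH-DHX36 on the right. 3′UTR reads fill most of the bar for DYNLL2, KIF5B, DYNC1LI2 and KIF1A in both panels, CDS reads for KIF22 and KIF15, and 5′UTR reads for KLC2.

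Summed over the motor genes, the 3′UTR held 24929 of 32075 exonic reads with FH-DHX36-E335A (77.7%, 95% Wilson interval 77.3 to 78.2) and 4655 of 7752 with FH-DHX36 (60.0%, 59.0 to 61.1). Over all rows the shares were 71.9% and 51.4%. By reads, one gene decided on which side of the whole table the motors stood, since without DYNLL2 the shares were 68.5% and 47.5%. The side also depended on the measure. Of exonic clusters, 52.4% and 54.4% lay in the 3′UTR, against 59.2% and 51.5% over all rows. Gene by gene, over 50% of exonic reads lay in the 3′UTR for 20 of 37 motor genes with FH-DHX36-E335A (background 64%) and for 10 of 22 with FH-DHX36 (background 47.8%). They lay in the CDS for 14 of 37 (background 28.2%) and 9 of 22 (background 38.5%). Allowing for length, reads per kb were higher in the 3′UTR than in the CDS for 23 of 37 motor genes with FH-DHX36-E335A (background 68.1%) and 12 of 20 with FH-DHX36 (background 55.1%). With the shortest and the longest annotated 3′UTR of the same stop codon, the direction turned for 5 of 34 genes with FH-DHX36-E335A (DYNLL1, DYNLT3, KIF3C, KIF13B and KLC1) and for 0 of 19 with FH-DHX36.

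Counted as genes with at least 1 cluster in a region, 30 of the 38 bound motor genes had a 3′UTR cluster (background 78.4%) and 31 a CDS cluster (background 65.2%) with FH-DHX36-E335A. For FH-DHX36 there were 12 of 26 (background 52.5%) and 11 (background 46.9%). Intron clusters were present on 8 of 38 (background 23.9%) and 7 of 26 (background 24.3%). Introns held over 50% of all reads for KIF13A and KIF24 with FH-DHX36-E335A (background 5.9%) and for KIF2C, KIF13A and KLC1 with FH-DHX36 (background 13.1%). Annotations other than UTR, CDS or intron held over 50% for KIF2A, KIF16B, KLC4 and DYNLRB1 with FH-DHX36-E335A (background 12.6%) and for KLC4 and DYNLRB1 with FH-DHX36 (background 10.4%).

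Reads in the 5′UTR made up 3.94% of the exonic reads for FH-DHX36-E335A and 11.4% for FH-DHX36, near the 5.21% and 10.7% of all rows. A 5′UTR cluster was present on 10 of the 38 motor genes with a cluster with FH-DHX36-E335A (background 20.4%) and on 5 of 26 with FH-DHX36 (background 18.6%). Over 50% of exonic reads lay in the 5′UTR for KLC2 and KIF18A with FH-DHX36-E335A (background 4.85%) and for KLC1, KLC2 and KIF18B with FH-DHX36 (background 12.2%). Of the 6 motor genes bound by FH-DHX36-E335A whose 5′UTR held a match with runs of 3 G, DYNLL2, KIF18B and KLC2 had a 5′UTR cluster and KIF4A, KIF5C and KIF16B had none. This was 50% (18.8 to 81.2), against 21.9% (11.02 to 38.8) of the 32 without a match, and over all rows the backgrounds were 30.6% and 19.7%. The intervals, over 6 and 32 genes, do not serve as a test of the difference, and none was run.

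The kinesins of cargo transport and those of mitosis, 13 genes each by their known roles, were compared by the part of the mRNA that held their summed reads, with no test. The mitotic list was KIF2B, KIF2C, KIF4A, KIF4B, KIF11, KIF14, KIF15, KIF18A, KIF18B, KIF20A, KIF20B, KIF22 and KIF23. Of exonic reads of the cargo kinesins (kinesin-1 heavy chains, kinesin-2 and the vesicle motors of kinesin-3), 87.1% (95% Wilson interval 86.4 to 87.9) lay in the 3′UTR with FH-DHX36-E335A and 89.2% (87.9 to 90.4) with FH-DHX36. For the mitotic kinesins the values were 31.4% (29.8 to 33.1) and 3.48% (2.61 to 4.63), and over all rows 71.9% and 51.4%. Without the gene with the most exonic reads in each, which were KIF5B, KIF1A, KIF23 and KIF18B in that order, the shares were 90.4%, 78.3%, 25.3% and 5.70%. Over 50% of exonic reads lay in the 3′UTR for 7 of 10 cargo kinesins and 3 of 11 mitotic kinesins with FH-DHX36-E335A (background 64%), and for 7 of 7 and 1 of 6 with FH-DHX36 (background 47.8%). The 3 mitotic kinesins were KIF2C, KIF14 and KIF20A, and the 3 cargo kinesins on the other side were KIF3C, KIF13A and KIF13B.

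The mRNAs also differ in length. Among genes with exonic FH-DHX36-E335A reads, the median 3′UTR had 3643 bases in the cargo kinesins and 618 in the mitotic kinesins, while the median CDS had 3102 and 2925. On the scale of reads per kb summed over those genes, the cargo kinesins had 201 in the 3′UTR and 21.96 in the CDS with FH-DHX36-E335A, 9.15 times as many. The mitotic kinesins had 109 and 52.3 reads per kb, 2.09 times as many in the 3′UTR. With FH-DHX36 the values were 84.0 and 8.39 reads per kb for the cargo kinesins and 9.37 and 47.5 for the mitotic kinesins. The density in the 3′UTR exceeded that in the CDS in 3 of these 4 pairs, and the exception was the mitotic kinesins with FH-DHX36. KIF2A, in neither list, had 4.03 reads per kb of its 3′UTR of 5456 bases and 543 of its CDS with FH-DHX36-E335A. A sum with KIF2A among the mitotic kinesins was not run, and it could turn their direction with FH-DHX36-E335A.

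**Figure D3:**
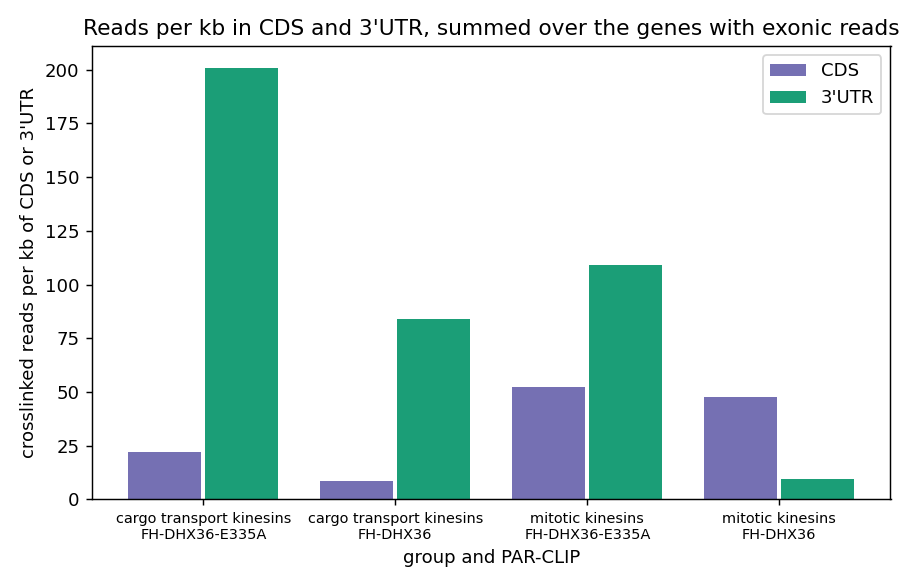
Crosslinked reads per kb of CDS and of 3′UTR, summed over the cargo transport kinesins and the mitotic kinesins with exonic reads, in each PAR-CLIP (linear axis from 0, no replicates). The bars stand at 21.96 and 201, 8.39 and 84.0, 52.3 and 109, and 47.5 and 9.37 from left to right.

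For the 24 motor genes bound by both proteins, the share of all crosslinked reads was compared between the PAR-CLIPs. It was higher with FH-DHX36-E335A for 12 (background 53.4%). It was at least 2-fold higher with FH-DHX36-E335A for 7 genes (background 28.6%), at least 2-fold higher with FH-DHX36 for 9 (background 24.8%) and within 2-fold for 8. The 7 were KIF3A, KIF2A, KIF23, DYNC1LI2, KIF5B, DYNC1H1 and KIF1B, with ratios from 8.41 down to 2.20. The 9 were KIF15, KLC4, KIF1A, DYNC1LI1, KIF18B, KIF7, KLC1, KIF1C and KIF4A, with ratios toward FH-DHX36 from 20.9 down to 2.16. KLC4, second in that order, was 11.4-fold higher with FH-DHX36 (counting interval 8.36 to 15.7). In 3 of them, KIF15, KLC4 and KIF1A, the raw number of reads was higher as well (background 10.7%).

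DYNLL2, with the most reads, was among the 8 within 2-fold, with a ratio of 1.30 toward FH-DHX36-E335A (counting interval 1.25 to 1.36). The counting interval left out 1 for 23 of the 24 genes, KIF11 being the other, but these intervals do not hold the spread between replicates. Scaling to the median ratio of all genes bound by both, which shifted every log2 ratio by -0.12, left 7 and 9 genes. A minimum of 50 reads in both PAR-CLIPs left 5 and 9. KIF3A and KIF23, with 18 and 45 reads with FH-DHX36, were then not compared. The G content of the 3′UTR of these 24 genes and the log2 ratio had a Spearman correlation of -0.29 with an interval across genes (-0.62 to 0.13) that includes 0, and over 5348 rows it was -0.30. The genes share libraries and the same totals, so these are descriptions of 2 PAR-CLIPs.

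**Figure D4:**
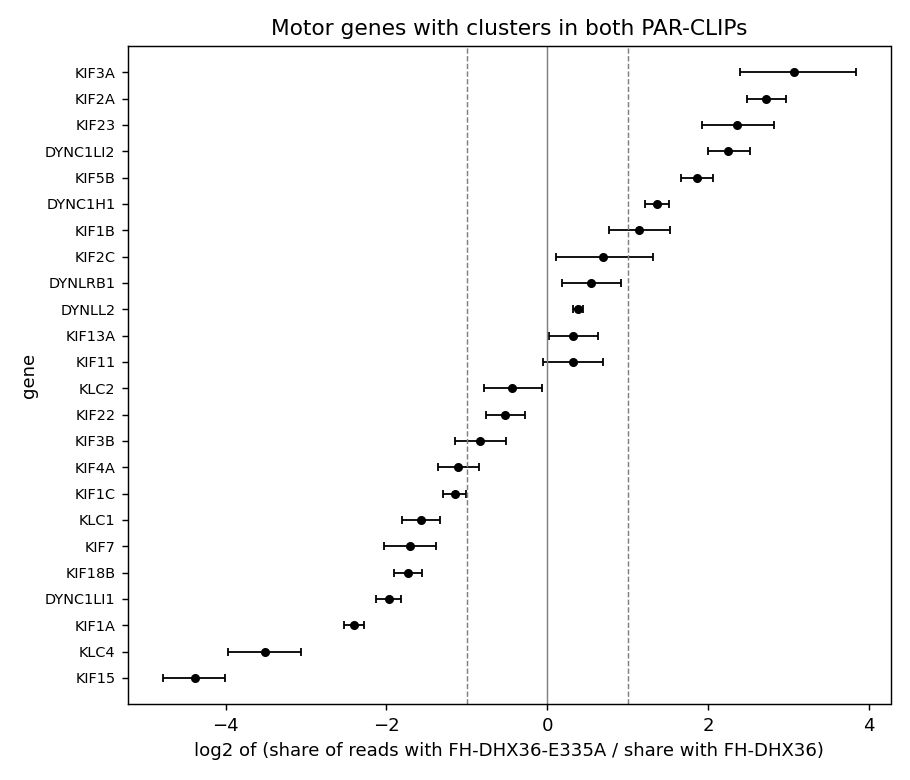
Log2 ratio of the share of all crosslinked reads, FH-DHX36-E335A over FH-DHX36, for the 24 motor genes with clusters in both PAR-CLIPs, with 95% intervals for counting error only and dashed lines at a 2-fold difference. KIF15 lies furthest to the left and KIF3A furthest to the right, and 8 genes lie between the dashed lines.

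The median NXPM of the motor genes with a cluster was 8.16 with FH-DHX36-E335A (95% interval of the median over genes 4.60 to 20.2) and 17.9 with FH-DHX36 (9.21 to 30.7). Over all rows with a cluster the medians were 5.66 and 7.84, and the recovered abundances had medians of 5.33 for the motor genes and 5.89 for all rows with FH-DHX36-E335A, and of 5.89 and 7.30 with FH-DHX36. Above 100 stood DYNLL2 with FH-DHX36-E335A (background 5.18%) and KIF1A and KIF5A with FH-DHX36 (background 6.78%). The kinesins had a median of 8.02 with FH-DHX36-E335A and the dyneins 8.30, and with FH-DHX36 the medians were 17.3 and 30.7.

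Longer motor mRNAs had higher NXPM. The score does not divide reads by length while the abundance in it is per length, and whether this accounts for the trend was not tested. Across the motor genes with a cluster, the Spearman correlation of NXPM with transcript length was 0.71 over 38 genes for FH-DHX36-E335A and 0.46 over 26 for FH-DHX36. Over all rows it was 0.55 and 0.53. The paper reports no correlation of binding with transcript length for either protein, by a measure that its main text does not name. DYNC1H1, with an mRNA of 19940 bases, had NXPM of 79.2 and 30.7, while on the scale of reads per kb of mRNA it had 205 and 19.7, against medians of 88.8 and 35.0 over the motor genes with a cluster.

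**Figure D5:**
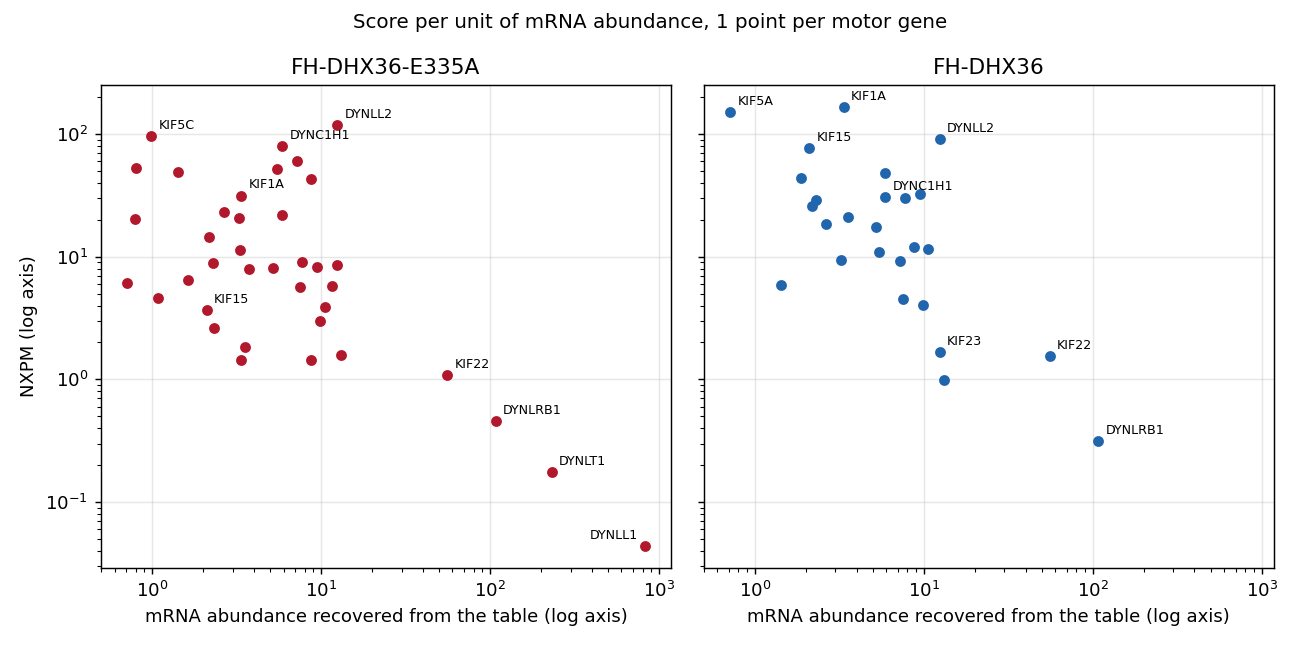
NXPM against the mRNA abundance recovered from the table (both axes log), 1 point per motor gene with a cluster, for FH-DHX36-E335A and FH-DHX36. DYNLL2 (NXPM 118 at an abundance of 12.5) and DYNLL1 (0.0436 at 830) lie at opposite corners of the FH-DHX36-E335A panel. The axes are not independent, since NXPM is scaled crosslinked reads divided by this abundance.

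The partners of the motors were counted in a list of 42 genes. Of these, 34 had a cluster for FH-DHX36-E335A and 25 for FH-DHX36, beside backgrounds of 34.5% and 22.4% of all rows and 47.9% and 31.1% of rows with a protein-coding transcript, which also stand for the smaller groups that follow. All 12 subunits of dynactin, the activator of dynein, had a cluster for FH-DHX36-E335A and 8 for FH-DHX36. Of 14 dynein adaptors and regulators the numbers were 12 and 10, of 12 kinesin adaptors and partners 8 and 7, and of the 4 kinesins with other symbols (CENPE and the KIFC genes) 2 and 0.

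Among the partners, PAFAH1B1, the dynein regulator LIS1, had 1883 and 233 reads and the dynactin subunit DCTN4 had 1507 and 90. BICD2, an adaptor between dynein and vesicles, had 1647 reads for FH-DHX36-E335A and 2958 for FH-DHX36, and NXPM of 80.8 and 588. Its 3′UTR held 1052 and 65 of these reads.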

How the data were processed

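The authors made PAR-CLIP libraries from 2 HEK293 lines, with 2 biological replicates of each and thus 4 samples in all. Reads were mapped to hg19, PARpipe ran PARalyzer with its defaults to call clusters, and GENCODE v19 annotated them. Versions of these programs are not given in the sources used here, and the submitters' processing notes name bcl2fastq 2.17.1. The deposited counts of crosslinked reads are not normalized and stand per gene and annotation, with the replicates combined, beside the number of clusters. The NXPM score was deposited by the authors as scaled crosslinked reads over mRNA abundance plus 0.001, and was used as deposited. No value column was left without a cell line.

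The motor genes and gene lists were chosen with earlier results of these data known, and every motor gene could be named. Abundance was recovered from reads and NXPM and has the unit of the authors' RNA-seq. Each share is relative to the total of crosslinked reads, 8752127 and 2160413. Intervals are 95% Wilson or exact binomial, and cover counting error only, since reads that are PCR copies or overlap do not each stand for a molecule. No test was run: the replicate test with edgeR that had been planned was not possible with 1 column per line. Region lengths and sequences came from the canonical transcripts of GENCODE release 44 on GRCh37, with the longest model for KIF5C. The reads had been assigned to regions with GENCODE v19, so values of reads per kb combine 2 annotations whose regions may differ. All 56 motor genes matched by symbol, and 18010 of 26490 rows had a protein-coding transcript. The scripts (Python 3.11.15, pandas 2.3.3, numpy 2.4.6, scipy 1.17.1) were tested on simulated data. Another definition of a bound gene, another scaling, a read minimum of 50, clusters in place of reads, the 3′UTR alone, and the longest transcript were tried as alternatives.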

Additional observations from a re-analysis of the deposited data

How the results depend on the processing

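Of 24 alternatives that were planned, 16 kept the value within the spread set for it, among them all alternatives of the number of bound genes (35 to 37 with FH-DHX36-E335A and 19 to 23 with FH-DHX36), of the median NXPM and of its correlation with length. The spread was wide for the median NXPM, which moved from 8.16 to 4.97 with FH-DHX36-E335A and from 17.9 to 28.6 with FH-DHX36 when the score of the 3′UTR was taken. That score is scaled to the total of 3′UTR reads and not to the PAR-CLIP total. Its medians cover only the 30 of 38 and 12 of 26 genes with a 3′UTR cluster. The values therefore differ in scale and in genes, and their closeness says little. The 3′UTR share of exonic reads, 77.7% with FH-DHX36-E335A, was 52.4% when clusters were counted, 68.5% without DYNLL2 and 63.5% of the reads of all annotations. With FH-DHX36, 60.0% became 54.4%, 47.5% and 53.8%. Over all rows the 3′UTR held 59.2% and 51.5% of exonic clusters in the 2 PAR-CLIPs. Of the reads of all annotations it held 53.3% and 38.4%. With 3′UTR reads alone, which 11 of the 24 genes had in both PAR-CLIPs, 4 genes were at least 2-fold higher with FH-DHX36-E335A in place of 7. With FH-DHX36 there were 3 in place of 9. Fewer genes could be compared, but some ratios changed as well. KIF23 (420 and 45 reads in the 3′UTR) and KIF1B (466 and 66) could be compared. Both fell under 2-fold when scaled to the 3′UTR totals of 4665949 and 830493. The comparison of 3′UTR shares between cargo and mitotic kinesins, with its versions without the deepest gene and as medians over genes, was added after seeing the data, and the medians were 86.8% and 28.1% with FH-DHX36-E335A and 100% and 0% with FH-DHX36. No paired analysis was possible because the table holds the replicates combined, and leaving out replicates was not run for the same reason. The alternative without KIF1BP was not run, as no row has that symbol. Whether the smaller total of the FH-DHX36 PAR-CLIP accounts for genes not listed there was not tested.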
